A study of Rattus norvegicus with 50 samples.

Results

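Neutrophil genes were followed in rat lung after inhalation of TiO2 nanoparticles. They were 10 of the 25885 gene names on the array, chosen by name among the gene spots, namely the receptors Csf3r, Cxcr2 and Fpr1, the surface protein Cd177, the granule proteins Mpo, Elane, Camp and Ltf, and the cytosolic proteins S100a8 and S100a9. Cd177 had been set against the other 9 because it was higher in exposed rats at every day. Its differences between exposed and control rats are therefore given as a description, with no test. The other 9 were tested within the fit over all 25235 genes tested.

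The animals were 50 male rats of the inbred strain F344, which had breathed through the nose only. The labels give an age of 12 weeks for rats of every sampling day, so this cannot be the age at sampling of all of them. The 25 exposed rats had received an aerosol of TiO2 P25 nanoparticles at 10 mg/m3 for 6 hours/day on 5 days/week over 4 weeks, and the 25 control rats had received filtered air in the same way. Lungs were sampled at the end of exposure (D0) or 3, 28, 90 or 180 days later (D3, D28, D90 and D180), so each of the 10 groups held 5 rats. RNA of the accessory lobe of each rat, 100 ng, was labelled with Cy3 and hybridised to its own one-colour Agilent array.

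The 50 arrays lay on 7 slides. Early arrays (D0, D3 and D28) filled 4 slides and late arrays (D90 and D180) 3, and 1 early array, that of exposed replicate 1 at D3, was placed on a late slide. Levels at D90 and D180 therefore cannot be told apart from slide when set against the earlier days, whereas each slide held both control and exposed rats. Between any days, time since exposure and age at sampling cannot be told apart either. The share of gene spots that the scanner software marked as well above background ran from 68.7% to 84.5% per array. Scgb1a1, the main secretory protein of airway club cells, was well above background on 50 of 50 arrays. In RNA from whole tissue, fewer cells of a type and less RNA per cell cannot be told apart.

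Neutrophils are short-lived phagocytes that leave the marrow for the blood and enter inflamed airspaces. They store antimicrobial proteins in granules that are filled one after the other while the cell matures in the marrow: myeloperoxidase (Mpo) and neutrophil elastase (Elane) are made early, lactoferrin (Ltf) and cathelicidin (Camp) later. A neutrophil that has reached a tissue therefore carries the early proteins but little of their mRNA. Csf3r, Cxcr2 and Fpr1 are receptors of the mature cell, S100a8 and S100a9 form the calcium-binding complex calprotectin, and Cd177 is a surface glycoprotein carried on a lipid anchor.

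Each of the 10 genes had 1 probe of 60 bases, spotted at 2 places on each array except for Elane, which had 1 spot. The probes are what was measured, and those of the genes that moved, of a receptor that moved little and of both early granule enzymes are given 5′ to 3′ in lower case as the array files hold them, with positions in rat build rn4.
Cd177, chr1:80033438-80033497, minus strand: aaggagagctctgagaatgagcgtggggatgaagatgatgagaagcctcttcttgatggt
S100a8, chr2:182962328-182962387, plus strand: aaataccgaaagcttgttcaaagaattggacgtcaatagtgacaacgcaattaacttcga
S100a9, chr2:182987647-182987706, minus strand: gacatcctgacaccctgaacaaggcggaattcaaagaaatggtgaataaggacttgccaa
Csf3r, chr5:145393491-145393550, plus strand: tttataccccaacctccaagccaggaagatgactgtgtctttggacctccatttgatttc
Mpo, chr10:76094059-76094118, plus strand: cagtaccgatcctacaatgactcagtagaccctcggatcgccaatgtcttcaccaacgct
Elane, chr7:11330273-11330751, minus strand: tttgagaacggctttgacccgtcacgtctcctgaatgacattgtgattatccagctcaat

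The S100a8 and S100a9 probes lay close to each other on chromosome 2, on opposite strands. The Elane probe covered 479 bases of the genome with its 60 bases, so its sequence is split between 2 places. The probes of Cxcr2 (chr9:73477254-73477313), Camp (chr8:114214914-114214973) and Ltf (chr8:115438446-115438505) are given by position. GC content ran from 36.7% for S100a8 to 51.7% for Mpo and Ltf, beside a median of 45% over all gene probes.

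The members Cd177, S100a8, S100a9, Csf3r, Cxcr2, Fpr1 and Camp, were well above background on 50 of 50 arrays, and none was saturated. The mRNAs of the early granule enzymes and of lactoferrin were at the limit of measurement. Mpo was well above background on 17 of 50 arrays (8 of 25 control and 9 of 25 exposed), Ltf on 3 and Elane on 2. The paired spots of these dim probes also disagreed more: the median difference between both spots of an array was 0.82 for Ltf and 0.38 for Mpo on the log2 scale, against 0.03 for S100a8 and 0.04 for Cd177. No fold change is given for Ltf and Elane, and none for Mpo at a day when a group had no array well above background.

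Cd177 was higher in exposed than in control rats on every day, with no overlap between the groups, and the difference shrank with time. Values are normalized log2 signals, on which 1 unit is a doubling. At D0 the control rats read 12.11, 11.43, 11.56, 11.44 and 12.66, and the exposed rats 14.21, 14.30, 14.38, 14.33 and 14.24. The 5 exposed rats lay within a narrow band while the controls were spread, with an SD of 0.07 against 0.53. At D3 the controls ran from 11.97 to 12.74 and the exposed rats from 14.19 to 14.50. The exposed rats of D0 and D3 thus read nearly alike, 14.29 ± 0.07 and 14.33 ± 0.11 (mean ± SD, n = 5 each).

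At D28 the Cd177 controls read 11.97, 12.33, 11.91, 12.11 and 12.30, and the exposed rats 13.40, 13.93, 13.26, 13.41 and 13.84. At D90 the controls lay between 12.10 and 12.49, and the exposed rats read 12.71, 13.02, 12.71, 12.98 and 13.23. At D180 the controls lay between 12.21 and 12.61, and the exposed rats read 13.16, 12.91, 12.84, 13.01 and 13.21. The lowest exposed rat was above the highest control on each of these days, by a margin that was smallest at the late days.

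As differences between means, Cd177 was higher in exposed rats by 2.45 ± 0.16 (SE) on the log2 scale at D0, then by 2.02, 1.44, 0.67 and, on the last day, 0.64, each with the same SE. These are 5.47-fold, 4.04-fold, 2.72-fold, 1.60-fold and 1.56-fold. The log2 difference at D28 was 58.8% of that at D0, and the difference at D180 was 26.0% of it. Cd177 stood 25th among the 25235 genes by its increase at D0, and 44th, 80th, 360th and 398th at the later days in turn. Within each slide that held both groups Cd177 was higher in the exposed rats, by 1.83 to 2.95 at D0 and by 0.63 to 0.75 at D180. For comparison, 2652 genes (10.5%) had a higher mean in exposed rats at every day and 28 genes (0.111%) passed the test at every day. Groups that did not overlap, with exposed rats above, were found for 4.87%, 3.54%, 2.03%, 2.24% and 2.47% of all genes in the order of days. For Cd177 these counts use the same values that set Cd177 apart, and nothing is read from them.

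**Figure D1:**
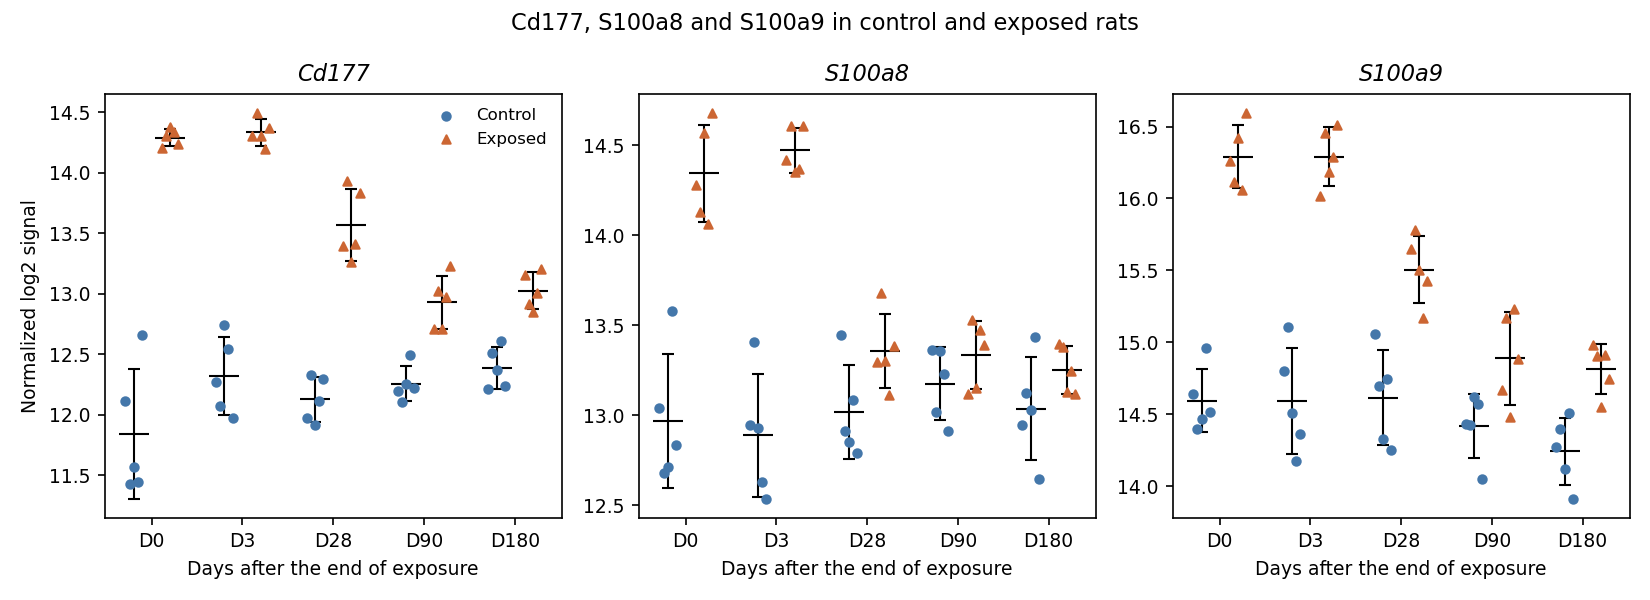
Normalized log2 signal (y axis) of Cd177, S100a8 and S100a9 in control rats (circles) and exposed rats (triangles) by days after the end of exposure (x axis, not to scale), where each point is 1 rat and black marks are the mean ± SD of 5 rats. Exposed rats lay above all controls at every day for Cd177, at D0 and D3 for S100a8, and at D0, D3, D28 and D180 for S100a9.

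S100a8 and S100a9, the calprotectin subunits, were the members besides Cd177 that were over-expressed in exposed lungs. At D0 the S100a8 controls read 13.04, 12.68, 12.71, 13.58 and 12.84, and the exposed rats 14.28, 14.13, 14.57, 14.06 and 14.68. The groups did not overlap, and S100a8 was higher by 1.38 ± 0.16 (SE, 2.60-fold, limma adjusted p = 7.02e-09). At D3 the controls ran from 12.54 to 13.41 and the exposed rats from 14.35 to 14.61, a difference of 1.58 (2.99-fold, limma adjusted p = 3.38e-10).

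From D28 on S100a8 no longer passed the test. The D28 controls read 13.44, 12.92, 12.85, 13.09 and 12.79 and the exposed rats 13.30, 13.68, 13.30, 13.11 and 13.39, so the groups overlapped. The differences were 0.34 at D28 (limma adjusted p = 0.264), 0.16 at D90 and 0.22 at D180 (limma adjusted p = 1.00 and 0.909), each ± 0.16.

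S100a9 passed at D28 as well. Its D0 controls read 14.64, 14.40, 14.47, 14.96 and 14.51 and the exposed rats 16.26, 16.12, 16.42, 16.06 and 16.60, higher by 1.70 ± 0.16 (3.24-fold, limma adjusted p = 7.42e-11). At D3 the difference was again 1.70 (3.25-fold, limma adjusted p = 1.21e-10). At D28 the controls read 15.06, 14.70, 14.33, 14.75 and 14.25 and the exposed rats 15.65, 15.78, 15.50, 15.17 and 15.43, with no overlap. S100a9 was then higher by 0.89 ± 0.16 (1.85-fold, limma adjusted p = 0.000375). Fitted on the D28 arrays alone, the same difference had an adjusted p of 0.0612, the highest of 19 alternatives, of which the lowest was 7.35e-05.

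At D90 the S100a9 groups overlapped, with controls at 14.05 to 14.62 and exposed rats at 14.48 to 15.23, and the difference was 0.47 (limma adjusted p = 0.237). At D180 the controls read 14.27, 14.40, 14.12, 14.51 and 13.91 and the exposed rats 14.98, 14.90, 14.55, 14.91 and 14.74. The D180 groups did not overlap, and the difference of 0.57 (1.49-fold) did not pass (limma adjusted p = 0.0815). Within slides S100a9 was higher in exposed rats on 3 of 3 slides at both late days.

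Counted over the 9 members other than Cd177, 2 were DEGs at D0 and 2 at D3, beside 4.2% and 3.55% of all genes, where a DEG had an absolute change of 1.5-fold or more and a limma adjusted p under 0.05. One DEG was left at D28, S100a9 (1 of 9, beside 1.37% of all genes), and 0 of 9 at D90 or D180, beside 0.372% and 0.333%. At an unadjusted p under 0.05 the counts were 4, 5, 3, 1 and 2 of 9 in the order of days, beside 23.5%, 21.6%, 16.8%, 7.23% and 8.02% of all genes, so that 1 of 9 at D90 was near the share over all genes. The median log2 difference of the 9 members, the 3 dim genes included, was 0.25, 0.35, 0.02, -0.05 and 0.15 in the order of days, and the median over all genes was within 0.011 of 0 at each day.

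**Figure D2:**
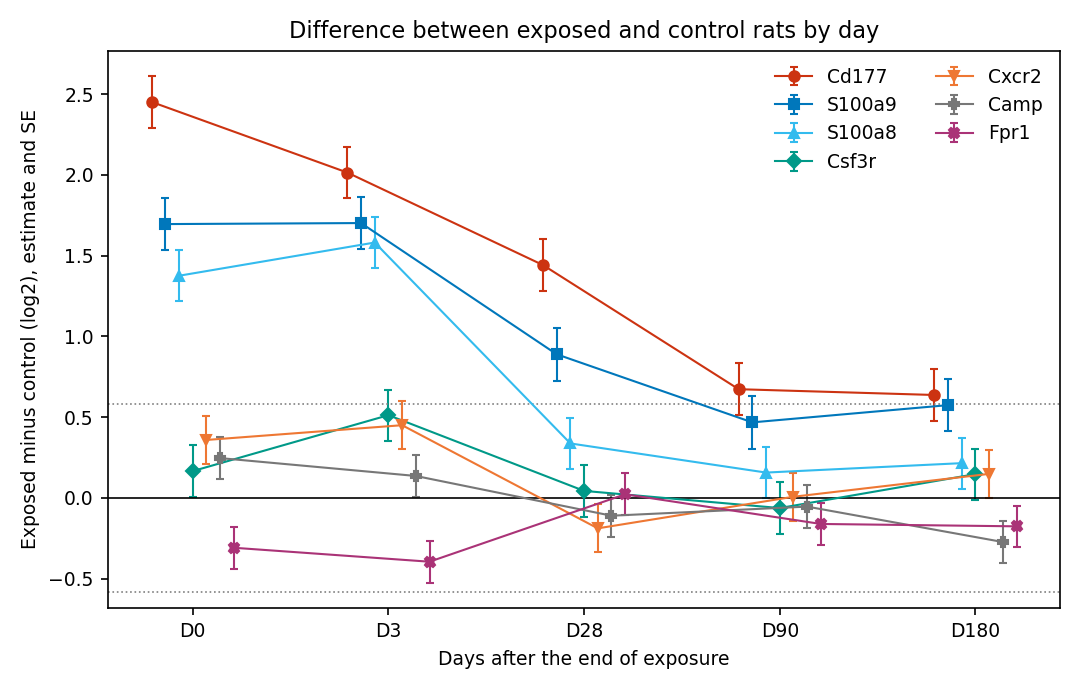
Difference between exposed and control rats in normalized log2 signal (y axis, estimate ± SE from limma) by days after the end of exposure (x axis, not to scale) for the 7 members well above background, with dotted lines at a 1.5-fold change. Cd177 fell from 2.45 to 0.64, S100a9 from 1.70 to 0.57 and S100a8 from 1.38 to 0.22, whereas the receptors and Camp stayed within the dotted lines.

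The receptors of the mature neutrophil changed little beside these genes, and none was a DEG at any day. Csf3r is the receptor for the granulocyte growth factor G-CSF. Its D0 controls read 8.75, 7.94, 8.28, 8.87 and 8.48 and the exposed rats 8.97, 8.44, 8.39, 8.43 and 8.92, a difference of 0.17 ± 0.16 (limma adjusted p = 0.637). At D3 the controls read 8.11, 8.56, 8.44, 8.22 and 7.94 and the exposed rats 8.90, 9.12, 8.89, 8.49 and 8.44. The groups overlapped at both days, and the D3 difference of 0.51 (1.43-fold) had an adjusted p of 0.0274 in limma with a size under the 1.5-fold limit.

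Cxcr2 binds the CXC chemokines that draw neutrophils into tissue. The D3 controls read 8.24, 8.89, 8.18, 7.98 and 8.18 and the exposed rats 8.81, 8.62, 8.91, 8.78 and 8.61, so that 4 of the 5 controls lay below all exposed rats and replicate 2 lay among them. The difference was 0.45 ± 0.15 at D3 (1.37-fold, limma adjusted p = 0.0414) and 0.36 at D0 (1.28-fold, limma adjusted p = 0.111). Both receptors turned on single arrays at D3. Without control replicate 2 the differences were 0.59 for Csf3r and 0.60 for Cxcr2, and both were DEGs (limma adjusted p = 0.0159 and 0.00364), which made 4 members called. Without exposed replicate 5 Csf3r was a DEG at 0.60 (limma adjusted p = 0.0133). Over 19 alternatives the adjusted p ran from 0.0133 to 0.144 for Csf3r and from 0.00364 to 0.189 for Cxcr2.

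Fpr1, the receptor for formylated bacterial peptides, lay on the other side of 0 at both early days. At D0 the controls read 8.30, 7.80, 7.97, 8.17 and 7.99 and the exposed rats 7.92, 7.85, 7.35, 7.91 and 7.66, a difference of -0.31 ± 0.13 (limma adjusted p = 0.117). At D3 the controls ran from 7.99 to 8.32 and the exposed rats from 7.46 to 8.01, a difference of -0.39 with an adjusted p of 0.0390 in limma and a size under the 1.5-fold limit. Fpr1 was lower in exposed rats on 4 of 4 slides at both days. With slide as a block the differences were -0.32 at D0 and -0.50 at D3 (limma adjusted p = 0.00821 and 0.000196), still under the fold limit. With the fold limit left out, 5 of the 9 members passed at D3, beside 10.6% of all genes, and these were S100a8, S100a9, Csf3r, Cxcr2 and, in the other direction, Fpr1.

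From D28 on the differences of the 3 receptors lay between -0.19 and 0.15, and the adjusted p was at least 0.569. Camp, the precursor of an antimicrobial peptide of late granules, differed by 0.25, 0.14, -0.11, -0.05 and -0.27 in the order of days, each ± 0.13, with limma adjusted p from 0.257 to 1.00. Its groups overlapped at every day, with all 50 values between 8.94 and 10.11.

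**Figure D3:**
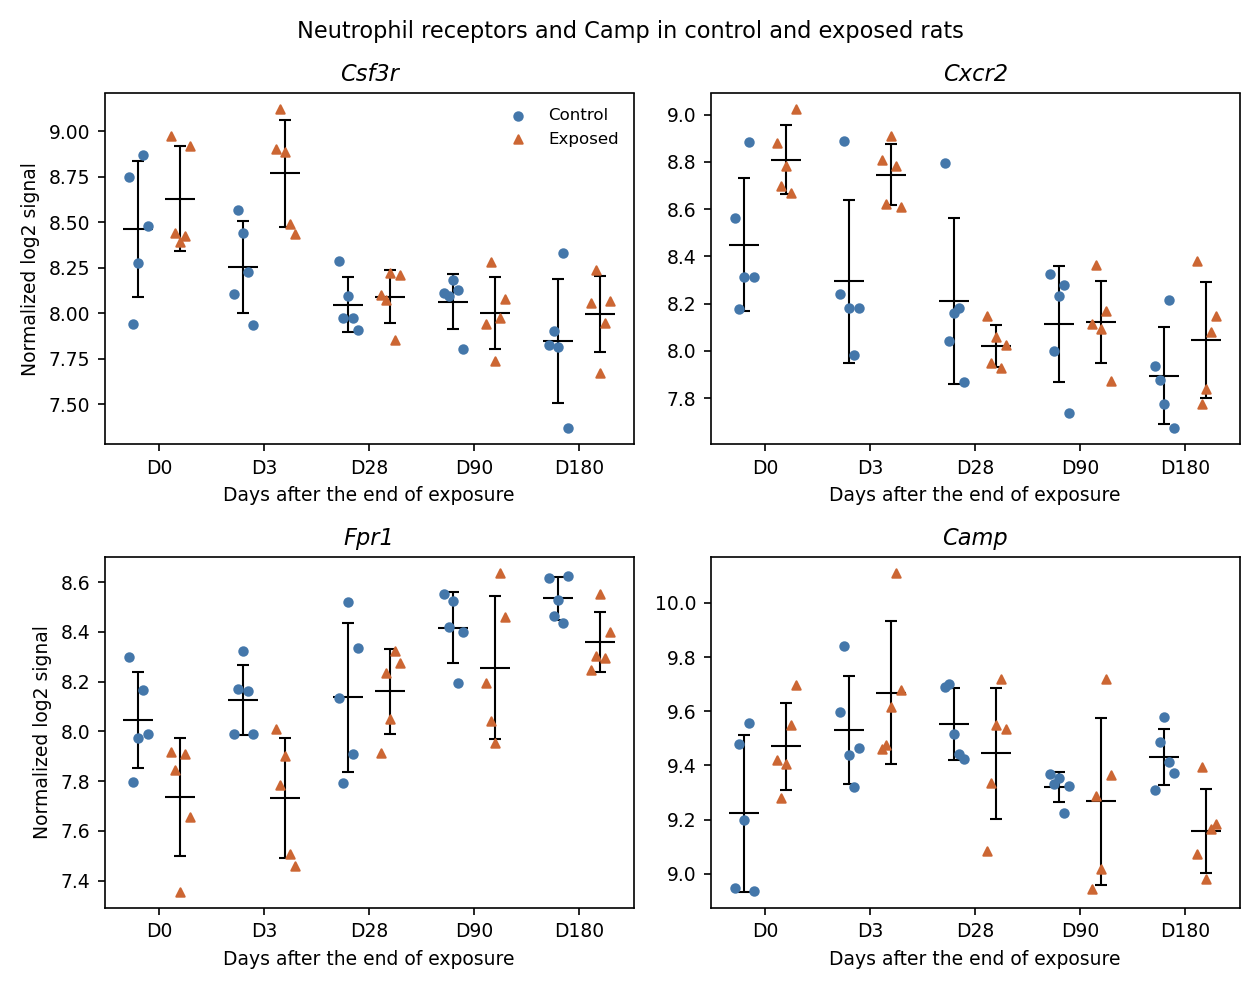
Normalized log2 signal (y axis) of Csf3r, Cxcr2, Fpr1 and Camp by days after the end of exposure (x axis, not to scale) in control rats (circles) and exposed rats (triangles), where each point is 1 rat and black marks are the mean ± SD of 5 rats. The groups overlapped at every day for each gene, and control replicate 2 of Cxcr2 at D3, at 8.89, stood above the other 4 controls.

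Mpo values ran from 2.45 to 5.40 over the 50 arrays, and no group had more than 4 of 5 arrays well above background. Its differences were 0.30 at D0, 0.41 at D28, -0.39 at D90 and -0.04 at D180, each ± 0.53, and none passed (limma adjusted p at least 0.753). Elane values ran from 2.30 to 6.20, with 1 array well above background among the D0 controls and 1 among the exposed rats at D180. Ltf values ran from 2.42 to 4.50, with 2 arrays well above background among the D90 controls and 1 among the exposed rats at D180. Arrays with a detected value thus occurred in control and exposed rats alike for these mRNAs.

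The exposure effect on the S100 genes was itself compared between days, as the exposed-minus-control difference of a later day less that of D0. At D3 0 of the 9 members differed from D0 beside 0.686% of all genes, and 0 also at an unadjusted p under 0.05, beside 9.8%. At D28 the S100a8 effect was lower by 1.04 ± 0.22 on the log2 scale (limma adjusted p = 0.00322), and that of S100a9 by 0.81 ± 0.23 (limma adjusted p = 0.0453), which made 2 of 9 members beside 1.64% of all genes. At D90 the effects were lower by 1.22 and 1.23, and at D180 by 1.16 and 1.12, with limma adjusted p of at most 0.00123. These again were 2 of 9 members, beside 2.19% and 2.27% of all genes. The late days lay on other slides than D0.

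The D28 call of S100a9 was narrow. Leaving out 1 array at a time, it was made in 8 of 20 cases, with adjusted p from 0.0195 to 0.123. It was lost without control replicates 1, 2, 3 or 5 or exposed replicates 3 or 5 of D0, and without control replicates 1, 2 or 4 or exposed replicates 3, 4 or 5 of D28. S100a8 kept its call in 20 of 20 cases. The same differences for Cd177 were -0.44, -1.01, -1.78 and -1.81 at the later days in turn, each ± 0.23, as a description. Thus by D28 S100a8 held 24.5% of its D0 log2 difference, S100a9 52.5% and Cd177 58.8%, and at D180 they held 15.7%, 33.9% and 26.0%. Differences between genes in these shares were not tested.

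Within the exposed rats alone, on arrays that also entered the comparisons with controls, 3 of the 9 members were lower at D28 than at D0, beside 0.729% of all genes. Cxcr2 fell by 0.79 (limma adjusted p = 0.000456), from 8.67 to 9.02 at D0 to 7.93 to 8.15 at D28. S100a8 fell by 0.99 (limma adjusted p = 3.29e-05) and S100a9 by 0.79 (limma adjusted p = 0.00157). Csf3r read lower by 0.54, under the fold limit (limma adjusted p = 0.0426), and was a DEG without exposed replicate 3 or 4 of D0 (-0.60 and -0.59, limma adjusted p = 0.0345 and 0.0420). With slide as a block it was a DEG too, at -0.59 (limma adjusted p = 0.0106). For these 4 genes every exposed rat of D28 lay below every exposed rat of D0, and 3.87% of all genes had groups that did not overlap in either direction. Fpr1 differed by 0.42 in the other direction (limma adjusted p = 0.0513). Between D0 and D3, and between D90 and D180, 0 of 9 members differed in limma, beside 1.28% and 0.00396% of all genes. At an unadjusted p under 0.05 the count was also 0 in each, beside 13.2% and 3.16%. In control rats D28 less D0 was -0.42 for Csf3r and -0.24 for Cxcr2 (limma adjusted p = 0.114 and 0.411). The exposure effect at D28 less that at D0 was -0.12 for Csf3r and -0.55 for Cxcr2. Neither passed (limma adjusted p = 0.879 and 0.199), so the falls of these receptors were not shown to differ from those of controls.

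Among the control rats 0 of the 10 members, Cd177 included, passed in limma between D0 and D3, D0 and D28, or D90 and D180, beside 2.33%, 2.46% and 0.0277% of all genes. At an unadjusted p under 0.05 the counts were 2, 2 and 0 of 10, beside 18%, 18.8% and 5.05% of all genes, which is near those shares. Cd177 was nearest at D3, higher than at D0 by 0.48 ± 0.16 (limma adjusted p = 0.0582). Control replicate 5 of D0, at 12.66, was the highest of its group, and without it Cd177 was a DEG at 0.68 (limma adjusted p = 0.00115, lowest of 18 alternatives, highest 0.495). The control means of S100a8 spanned 0.29 over the 5 days and those of S100a9 0.37, beside a pooled SD within groups of 0.25 and 0.26.

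Rats of one group also differed from each other, and these deviations were compared gene by gene after each array's group mean was subtracted. Deviations of S100a8 and S100a9 went together (Pearson r = 0.87, Spearman rho = 0.88, 50 arrays, permutation p = 1e-05 for each, the smallest that 100000 permutations can give, adjusted p = 7.5e-05 and 0.000225 over 45 pairs). Cxcr2 followed both, with r = 0.72 to S100a8 and 0.69 to S100a9 (rho = 0.62 and 0.60), and so did Csf3r, with r = 0.68 and 0.56 (rho = 0.63 and 0.51). Csf3r and Cxcr2 had r = 0.61 (rho = 0.60). The permutation p of these 5 pairs was at most 4e-05 for r and 0.00076 for rho, and the adjusted p at most 0.000257 and 0.00489. Without the 2 arrays farthest from the median on the first gene the 6 coefficients were 0.53 to 0.86, and with slide means removed as well they were 0.74 to 0.91.

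These 4 genes thus varied together from rat to rat. In control rats alone the 6 coefficients were 0.68 to 0.91. In exposed rats alone S100a8 and S100a9 had r = 0.86, while the other 5 ran from 0.20 to 0.40 and did not pass (adjusted p = 0.432 to 0.662). Whether the coefficients differ between control and exposed rats was not tested.

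The deviations of Cd177 did not correlate with those of these 4 genes past the threshold. Over all arrays they had r = 0.11 with S100a8, 0.08 with S100a9, 0.24 with Csf3r and -0.15 with Cxcr2 (rho = 0.25, 0.16, 0.23 and -0.09, permutation p = 0.600, 0.629, 0.209 and 0.420 for r and 0.132, 0.337, 0.139 and 0.590 for rho, adjusted p = 0.815, 0.815, 0.448 and 0.652 for r). In exposed rats alone r was 0.50 with S100a8, 0.41 with S100a9, 0.22 with Csf3r and -0.03 with Cxcr2 (rho = 0.49, 0.43, 0.21 and -0.01, permutation test, adjusted p = 0.173, 0.432, 0.649 and 0.968 for r), and in control rats alone it was -0.04 and -0.09 with the S100 genes. The S100 coefficients in exposed rats were as high as those of Csf3r and Cxcr2 there or higher, and none of these passed. Of the 9 pairs of Cd177 over all arrays 1 passed, with the dim gene Mpo (r = 0.52, rho = 0.49, permutation p = 0.00222 and 0.00236, adjusted p = 0.0125 and 0.0133). With slide means removed that coefficient was -0.02. Fpr1 and Mpo had r = 0.66 (rho = 0.71, permutation p = 1e-05 for each, adjusted p = 7.5e-05 and 0.000225), which was 0.20 with slide means removed. In all 8 of 45 pairs passed by r.

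**Figure D4:**
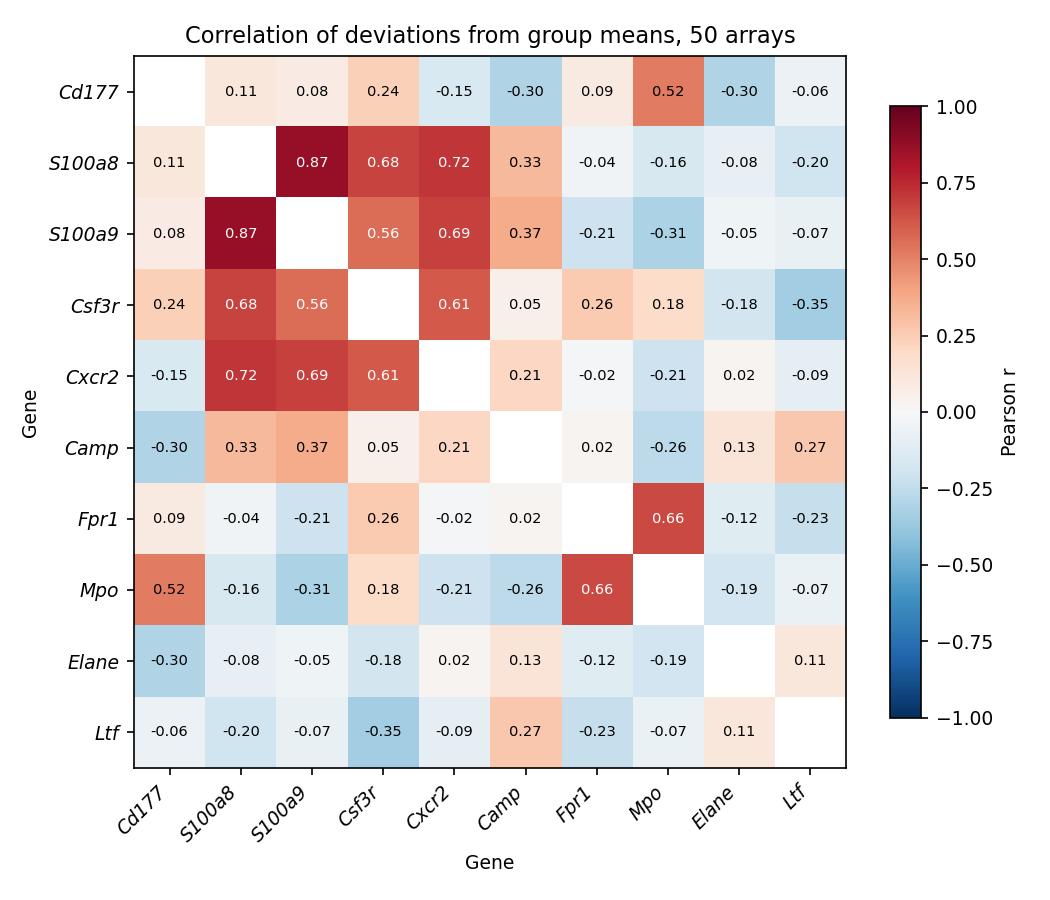
Pearson r between the deviations of each pair of members from their group means over 50 arrays, on a colour scale from -1 (blue) to 1 (red), with both axes listing the 10 genes. S100a8, S100a9, Csf3r and Cxcr2 form a block with r from 0.56 to 0.87, and the row of Cd177 holds values between -0.30 and 0.24 apart from 0.52 with Mpo.

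The genes whose deviations, with group and slide means removed, were most like those of Cd177 over 50 arrays were C3, the central complement component (Pearson r = 0.89), Slc26a4, the anion exchanger pendrin (0.80), Rhbdl2, a membrane protease (0.76), Muc1, a membrane mucin of epithelia (0.70), and Kif5a, a kinesin motor (0.68). The middle of the 17139 named genes, from the lower to the upper quartile, ran from -0.15 to 0.15. S100a9 (0.20) and S100a8 (0.14) stood 3201st and 4421st in that order, and Fpr1 (-0.39) stood 16514th. With slide means left in, C3 had r = 0.86, Slc26a4 0.39, Rhbdl2 0.24, Muc1 0.62 and Kif5a 0.65. The Cd177 values were spread most in the D0 controls, with an SD of 0.53. The SD was 0.32 in the D3 controls and 0.07 in the exposed rats of D0. Rats of the D0 controls therefore weigh most in these coefficients, and the order was not computed with arrays left out.

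Among the genes most like the mean of S100a8 and S100a9 were Pla2g7, a phospholipase that breaks down platelet-activating factor (0.81), Csf3r (0.79), Lrg1, a secreted glycoprotein (0.79), and Cxcr2 (0.77). The receptors Csf3r and Cxcr2 were thus among the 5 genes nearest to the S100 pair. Cd177 stood 2792nd (0.17), and the third receptor, Fpr1, stood 3240th (0.15, and -0.13 with slide means left in). These coefficients are descriptions over the same 50 arrays and carry no p.

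Other genes of neutrophil biology were taken from lists of granule and mature-cell genes. Of all genes, 2.7%, 2.01%, 0.864%, 0.238% and 0.238% were DEGs with higher levels in exposed rats at D0, D3, D28, D90 and D180, and 1.5%, 1.54% and 0.135% with lower levels at D0, D3 and D90. Of 11 measured primary granule and precursor genes, such as Prtn3, Ctsg and the defensins, 0 were DEGs at any day in limma, with 1 at an unadjusted p under 0.05 at D0 and at D90 and 0 at the other days. Their median difference was 0.27 at D0. Of these 11, 5 were well above background on 13 or fewer arrays, Prss57 on none of 50 and Ms4a3 on 1. Prtn3, proteinase 3, and Cebpe, a transcription factor of granulocyte precursors, were well above background on 50 of 50 arrays. Neither passed, with differences of -0.02 and 0.35 at D0. The defensin Np4, well above background on 38 of 50 arrays, had D0 means of 4.84 in controls and 6.01 in exposed rats. At D90 its means were 5.49 and 4.37, and it was not a DEG at any day. These genes were chosen after their values were seen.

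Of 13 secondary and tertiary granule genes, 4 were higher at D0, 3 at D3, 2 at D28 and 1 at D90. None was higher at D180 in limma, and none was lower at any day. Lcn2, lipocalin 2, which binds bacterial iron chelators, had differences of 3.22 at D0 and 2.47 at D3 (limma adjusted p = 1.33e-15 and 6.78e-12). For Chi3l1, a chitinase-like protein, they were 1.94, 1.62, 1.16 and 0.60 from D0 to D90 (limma adjusted p at most 0.000696). Hp, haptoglobin, was higher by 1.58, 1.31 and 0.96 at D0, D3 and D28. Lcn2, Chi3l1 and Hp are known to be made by epithelial cells or macrophages as well as neutrophils. The other DEG at D0 was Fcnb, with means of 9.66 in controls and 11.22 in exposed rats. Its means at D3 were 11.47 and 11.74, and it was named after its values were seen. Mmp8, Mmp9, Ngp and Pglyrp1, also proteins of late granules, differed by -0.41 to -0.05 at D0 and by 0.03 to 0.35 at D3, and none was a DEG (these 4 were chosen after their values were seen). The low end at D0 was Ngp, a dim gene, well above background on 2 of 5 control and 2 of 5 exposed arrays of that day. Pglyrp1, at -0.36 at D0, had a limma adjusted p of 0.0311 and missed the fold limit. The list's median was 0.33 at D0 and 0.00 at D180.

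Of 21 mature neutrophil surface and effector genes, 5 were higher at D0, 6 at D3, 1 at D28 and 0 later, and none was a DEG with lower levels. The list's median was 0.45 at D0 and 0.30 at D3. Of the 21, Fpr2, Fpr-rs6 and Ltb4r were well above background on 19, 0 and 21 of 50 arrays, and without these 3 the medians were 0.48 and 0.34. Fcgr3a, an Fc receptor, was lower by 0.36 at D0 and by 0.28 at D3 (limma adjusted p = 0.000499 and 0.00883), under the fold limit. Il1r2, the decoy receptor for interleukin 1, had differences of 1.15 at D0 and 1.79 at D3 (limma adjusted p = 8.72e-07 and 4.83e-11). Itgam, an integrin chain shared with macrophages, was higher by 0.81, 0.94 and 0.75 at D0, D3 and D28 (limma adjusted p at most 8.54e-05). Retnlg, a resistin-like protein, was higher by 0.98 at D0, and Clec4e, a lectin receptor, by 0.88 at D3 (limma adjusted p = 0.000174 and 0.0120). Cxcr1 and Padi4 had differences of -0.20 and 0.14 at D0 and did not pass (Fcgr3a, Cxcr1 and Padi4 were chosen after their values were seen).

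Of 11 measured ligands that attract neutrophils or drive their production, 6 were higher at D0 and 7 at D3, with medians of 0.75 and 0.66. The 6 at D0 included Il6, which no array of that day had well above background, and without it and Il17a the counts were 5 and 7 of 9. The other 5 at D0 did not pass, among them Csf3, the ligand of Csf3r, at -0.08, Ppbp at -0.01 and Il1b at 0.26 (chosen after their values were seen). Cxcl5, a ligand of Cxcr2, was well above background on 0 of 5 control and 5 of 5 exposed arrays at D0, and was at least 13.2-fold higher (limma adjusted p = 6.49e-13). At D3 it was well above background on 2 of 5 control arrays, and the difference was 4.08 (limma adjusted p = 2.21e-12). Tnf was higher by 1.77 and 1.33 and Cxcl2 by 1.83 at D0, and Cxcl1 by 1.43 at D3 (limma adjusted p at most 0.000161). At D28 only Il17a passed, well above background on 0 of 5 control and 1 of 5 exposed arrays. At D90 Cxcl1, another ligand of Cxcr2, was lower by 1.05 (limma adjusted p = 0.0186). At D180 0 of 11 passed in limma.

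**Figure D5:**
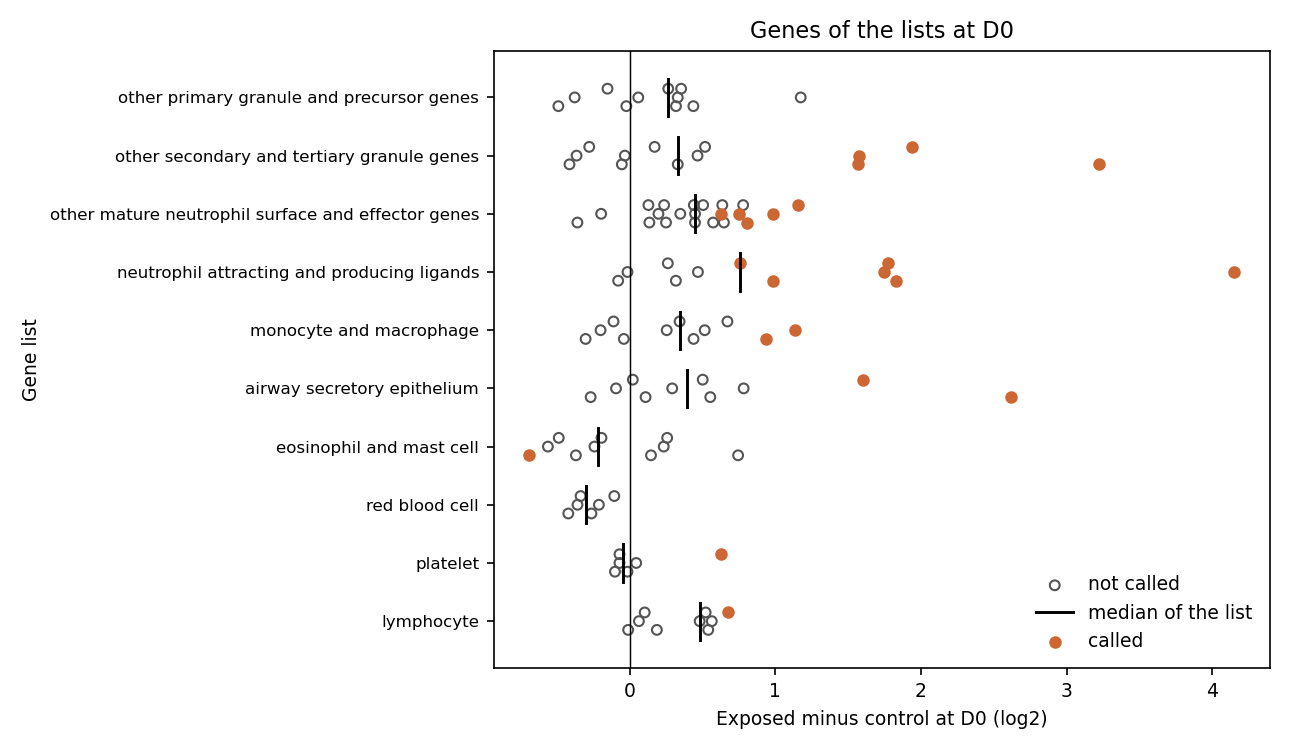
Exposed-minus-control difference at D0 in normalized log2 signal (x axis) of each gene of the neutrophil lists and of lists for other cell types (y axis), where filled points are DEGs, open points are not, and a black bar is the median of a list. DEGs lay above 0 in every list that had any except eosinophil and mast cell, and the ligand list had the highest median, 0.75.

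Genes of other cell types moved in the same comparisons. Of 11 monocyte and macrophage genes, 2 were higher at D0, namely Ccr2 by 1.13 and Cd14 by 0.93, and 1 at D3, Cd14 by 0.86. The log2 of their summed signal ran from 15.00 to 15.22 in controls and from 15.35 to 15.99 in exposed rats at D0, from 15.46 to 15.98 and 15.76 to 16.04 at D3, and from 15.19 to 15.42 and 15.25 to 15.52 at D180. Marco was well above background on 11 of 50 arrays. The part of these cells in the S100 results was not tested.

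Of 10 airway secretory genes, 2 were higher at D0, D3, D28 and D90 and 1 at D180. Bpifb1, a secreted airway protein, was higher by 2.62, 2.39, 1.31 and 1.26 at D0, D3, D28 and D90. Muc20, a membrane mucin, was higher by 1.60, 1.86, 1.21, 0.71 and 0.68 at the 5 days (limma adjusted p from 2.00e-11 to 0.0281). Tff2 was well above background on 0 of 50 arrays and Muc5ac on 1. The summed signal ran from 17.87 to 18.41 in controls and from 18.01 to 18.49 in exposed rats at D0, and from 18.24 to 18.40 and 18.10 to 18.34 at D180. Most of the sum at D0 was Scgb1a1, with means of 17.63 in controls and 17.36 in exposed rats. The sum therefore says little of the dimmer genes. Muc20 and Cd177 were higher in exposed rats at all 5 days. So were the means of Bpifb1 from the airway list and of Hp, Chi3l1, Cyba and Ncf1 from the neutrophil lists. Of all genes, 10.5% had a higher mean in exposed rats at every day. At D0 Scgb1a1 and Scgb3a1 of the airway list read lower in exposed rats, and Scgb3a2 and Bpifa1 read higher. These genes were chosen after their values were seen. The part of airway cells in the Cd177 values was not tested.

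Of 10 eosinophil and mast cell genes 1 was lower at D0 and 2 at D3, the mast cell tryptases Tpsb2 by 0.69 at D0 and 0.62 at D3 and Tpsab1 by 0.84 at D3. Of 6 platelet genes 1, Pf4, was higher at D0 and D3 by 0.63 and 0.64, and of 9 lymphocyte genes 1, Cd79b, was higher at D0 by 0.67. Of 6 red blood cell genes 0 passed at any day in limma, with a median of -0.30 at D0 and -0.13 at D180.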

How the data were processed

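Members and gene lists were chosen with earlier results of these data known. The authors deposited, per the file headers, spot intensity on a linear scale from Agilent Feature Extraction 11.0.1.1, background-corrected and detrended by that software. A later release stands in the study's methods. The deposited series matrix, also intensity, served as an alternative.

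Here log2 processed intensities of gene spots were quantile normalized between the 50 arrays. Spots that the software marked as uneven or outlying were dropped (324 to 872 per array) and the spots of a probe averaged. Probes above the 95th percentile of negative controls on at least 5 arrays were kept (29578), and the probe with the highest mean stood for its gene (25235 genes). Names of 84 spots altered by a spreadsheet in some files were taken from the other files.

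Groups came from the labels. Group means were fitted with limma 3.58.1 in R 4.3.3, with two-sided p-values adjusted by the Benjamini-Hochberg method over all genes tested. DEGs changed by 1.5-fold or more with an adjusted p under 0.05. Correlations used 100000 permutations within groups, two-sided, in Python 3.11.15 with numpy 2.4.6. Scripts were tested on simulated data. All 10 members are named, with up to 3 DEGs with the largest change per list and day, and the 5 genes most like Cd177 and the S100 pair among named genes. A gene and a probe sequence are not reported here. Of the lists, 9 genes had no probe. The array number limits the precision. Alternatives were other scaling, background correction, series matrix values, filters, probe choice, slide or replicate number as a block, fewer arrays and each array left out. Same-numbered control and exposed rats did not deviate together on every day, so numbers were not taken as pairs.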

Additional observations from a re-analysis of the deposited data

Results flagged for a closer look

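In 6 of the 100 groups of 5 arrays examined over the 10 members, 1 array stood apart from the other 4, and chance gives about 1 in 20. Csf3r read 7.80 in replicate 5 of the D90 controls, with 8.10 as the next value. Cxcr2 read 8.89 in replicate 2 of the D3 controls, with 8.24 next. Elane, which was well above background on 2 of 50 arrays, read 6.20 in replicate 2 of the D0 controls, 3.27 in replicate 2 of the D3 controls, 4.64 in replicate 1 of the exposed rats at D3 and 5.60 in replicate 4 of the exposed rats at D180.

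The exposure effect differed from that at D0 for both S100 genes at the 3 later days, by the interaction test of limma. For S100a8 the log2 difference was -1.04 at D28, -1.22 at D90 and -1.16 at D180 (adjusted p = 0.00322, 0.000238 and 0.000487). For S100a9 it was -0.81 at D28, -1.23 at D90 and -1.12 at D180 (adjusted p = 0.0453, 0.000348 and 0.00123). The D90 and D180 arrays lay on other slides than those of D0.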

How the results depend on the processing

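S100a8 and S100a9 kept their calls at D0 and D3 under all 19 alternatives, and both exposure effects at D90 and D180 under all 29. The replicate block changed 1 count, the members whose exposure effect at D28 differed from D0, from 2 to 1, with S100a9 at an adjusted p of 0.0681 in limma (over 29 alternatives 0.0174 to 0.123). That count was also 1 with only the arrays compared, and 1 to 2 with 1 array left out. It was 1 too when another probe stood for genes with several probes. Each member had 1 probe, so the S100a9 difference stayed at -0.81 there, and only its adjusted p moved, to 0.0510 in limma. With only the arrays compared, the D28 count fell from 1 to 0. With no fold limit the D3 count was 5, and with 1 array left out it was 2 to 4, while control rats at D3 against D0 gave 0 to 1. In exposed rats alone 2 rather than 8 pairs correlated. The causes were not tested.

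No change of sign touched a DEG. With slide as a block the difference was -0.0175 for Csf3r, -0.0384 for Fpr1 and -0.0259 for Mpo at D28, and 0.0264 for Mpo at D180. With normexp and with series matrix values it was 0.0831 and 0.0749 for Mpo at D180. With 1 array left out the ranges were -0.132 to 0.00433 for Csf3r, -0.0865 to 0.0697 for Cxcr2 and -0.167 to 0.0274 for Camp at D90, -0.0637 to 0.118 for Fpr1 at D28 and -0.222 to 0.168 for Mpo at D180. Where a group had no array well above background (Elane, Ltf, and Mpo at D3) no alternative gives a value. Correlations of Cd177 turned with slide removed to -0.0138 with Csf3r, -0.391 with Fpr1, -0.0236 with Mpo and 0.0541 with Ltf. In control rats they were -0.00434 with Fpr1, -0.0415 with S100a8 and -0.0877 with S100a9, and in exposed rats 0.0550 with Camp. Mpo, Elane and Ltf are limited by signal over background. The list medians without dim genes were chosen after seeing the data.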
